A study of Mus musculus with 6 samples.

Results

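The Serpin genes encode the serpin superfamily of protease inhibitors and were chosen by name: every protein-coding mouse gene of the deposited files whose symbol begins with Serpin. Of 20097 genes listed in the files, 22 met this rule, and 14 of them passed the filter on low values and were tested. RNA of c-Kit+ bone marrow cells, a fraction rich in blood stem and progenitor cells that carry the receptor tyrosine kinase encoded by Kit, was sequenced from 3 libraries of genotype WT and 3 of genotype Runx1 KO, a knockout of the gene for the transcription factor RUNX1. The labels give neither age, sex nor strain, nor how or when Runx1 was disrupted, nor whether animals were pooled. Nothing in the labels says that the libraries of a group came from separate animals, so the p values measure the spread between these libraries.

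A typical serpin presents an exposed peptide, the reactive centre loop, as bait for a protease. When the protease cuts the loop, the serpin refolds, drags the enzyme along and traps it, so each molecule is spent in the act. The sequence of the loop sets which protease is caught. Family members are grouped in clades by descent. Clade A holds secreted relatives of antitrypsin and antichymotrypsin. Clade B holds inhibitors that mostly stay in the cytosol, where some of them protect leukocytes from their own granule proteases. Clades C to I hold inhibitors of clotting, fibrinolysis and complement together with a few members, such as Serpinf1 and Serpinh1, that inhibit no protease.

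Many Serpin genes lie in tandem clusters of close copies, and the loop is where the copies differ most. The coding stretches below run from the conserved hinge of the loop to a conserved phenylalanine after it, on GRCm38, for 6 of the 10 genes that changed. They were read from the GENCODE M21 transcripts, and capitals mark the variable part between hinge and anchor, which holds the bait residues. The first 3 are copies that rose together, the next pair are copies that moved in opposite directions, and the last is the most abundant Serpin transcript of the WT libraries.
Serpina3g, chr12:104241066-104241164, + strand: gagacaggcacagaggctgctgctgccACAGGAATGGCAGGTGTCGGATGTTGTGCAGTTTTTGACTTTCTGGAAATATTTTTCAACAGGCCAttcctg
Serpina3f, chr12:104220239-104220340, + strand: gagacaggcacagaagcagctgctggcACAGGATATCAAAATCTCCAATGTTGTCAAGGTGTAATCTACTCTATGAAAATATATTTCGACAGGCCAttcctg
Serpina3b, chr12:104138659-104138757, + strand: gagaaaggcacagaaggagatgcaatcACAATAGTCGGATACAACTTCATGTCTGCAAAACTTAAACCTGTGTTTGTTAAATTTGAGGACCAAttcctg
Serpinb6a, chr13:33918104-33918199, - strand: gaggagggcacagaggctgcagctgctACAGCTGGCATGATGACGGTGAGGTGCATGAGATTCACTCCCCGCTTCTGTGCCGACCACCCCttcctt
Serpinb6b, chr13:32978201-32978290, + strand: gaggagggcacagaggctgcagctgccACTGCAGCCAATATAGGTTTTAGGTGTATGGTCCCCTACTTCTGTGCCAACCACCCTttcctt
Serpinb1a, chr13:32842881-32842976, - strand: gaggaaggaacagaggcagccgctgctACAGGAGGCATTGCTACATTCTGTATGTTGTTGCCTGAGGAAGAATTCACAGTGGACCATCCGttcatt

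Serpina3g and Serpina3f were identical at 24 of the 27 hinge bases and at 68.2% of 66 aligned bases of the capitals, against 87.5% over their aligned coding sequence. Serpinb6a and Serpinb6b were identical at 26 of the 27 hinge bases and at 70.2% of 57 aligned bases of the capitals, against 86.3% over the coding sequence. Of the 50-base windows of the Serpina3g transcript, 16.02% occurred also in another gene, 8.67% of all windows in the pseudogene Serpina3h and 6.67% in Serpina3f, with windows found in both counted for each. The share was 10.7% for Serpina3f, 2.92% for Serpina3b, 3.42% for Serpinb1a, 3.12% for Serpinb6b, 0.38% for Serpinb9, and 13.1% for Serpinb6a, where 10.1% fell in the overlapping transcript 1110046J04Rik. How the authors' counting treated reads that match several copies, and whether it used the strand, are not given in the sources used here, so the values of these copies carry that uncertainty.

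The smallest value in each file was taken as 1 read, although this unit did not pass as recovered reads for every file. Summed as whole multiples of it, the 6 libraries held between 23297526 and 26793380 reads. Values are given below as normalised read counts, which the authors had scaled by 1 factor per library. Runx1 was not lower under the label Runx1 KO: it had 3031, 2799 and 3497 normalised reads in the WT libraries and 6648, 6720.3 and 5830 in those labelled Runx1 KO. The labels do not say which part of the gene was removed, so a total over the gene cannot check the deletion, and each direction below runs from libraries labelled WT to libraries labelled Runx1 KO. Kit, the marker of the sort, had between 7979 and 8471 normalised reads in WT and between 11507 and 13684 in Runx1 KO. By limma on log2(normalised read count + 1), 3370 of 15410 tested genes (21.9%) had an adjusted p under 0.05, with 1631 higher (10.6%) and 1739 lower (11.3%). When the values were scaled by library totals, 63.5% of the called genes were higher, against 48.4% here. Without WT replicate 2, Runx1 KO replicate 2 or Runx1 KO replicate 3, 2208, 1367 and 1767 genes passed.

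Of the 14 tested Serpin genes, 10 passed an adjusted p of 0.05, against 21.9% of all tested genes, with 5 higher and 5 lower in Runx1 KO. All 3 tested genes of clade A rose, by 2.34 to 3.05 on the log2 scale. Serpina3b, 1 of the 3, passed the filter on low values only through its Runx1 KO libraries. The other 2 listed genes of clade A, Serpina11 and Serpina12, were under the filter, with at most 6.92 normalised reads in a library. Serpina12 had 6.92, 2.02 and 1.92 normalised reads in WT and 0, 0.991 and 0.995 in Runx1 KO. These groups did not overlap, but they rest on very few reads. With no filter on low values its limma adjusted p was 0.14. Clade B was divided: 2 genes rose, 2 fell and 1 did not pass. In the other clades 3 genes fell, Serpine2, Serpinf1 and Serpinh1, and 3 did not pass. The median log2 change of the 14 genes was -0.55, beside a median of -0.0042 over all tested genes. The groups did not overlap in 13 of the 14, where 43.3% of all tested genes showed no overlap; Runx1 KO was above in 6 (21.4% of all genes) and below in 7 (21.9%).

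**Figure D1:**
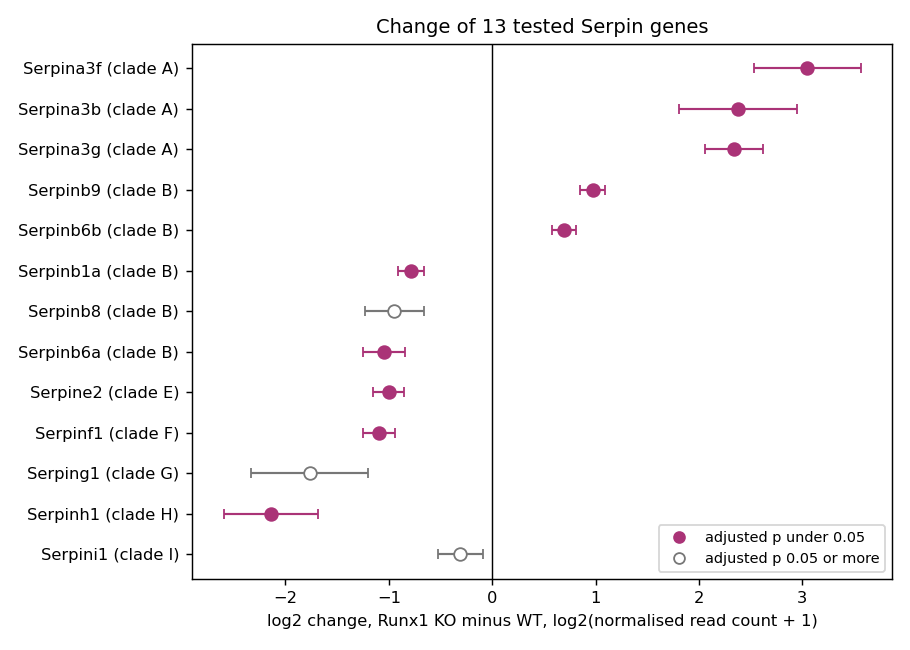
Log2 change (Runx1 KO minus WT, horizontal axis, log2 of normalised read count + 1) of 13 of the 14 tested Serpin genes, ordered by clade; points are limma estimates, bars the standard error, and filled points have an adjusted p under 0.05. The 3 clade A genes lie from 2.34 to 3.05, while clade B has filled points on both sides of 0.

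Clade A is the family of antitrypsin, made mainly by the liver, and in the mouse its antichymotrypsin gene has multiplied into the Serpina3 copies. The cluster on chromosome 12 holds 23 protein-coding Serpina genes over 799.5 kb, of which 5 are listed in the files and 3 were tested. Those 3 are Serpina3b, Serpina3f and Serpina3g, 3 of the 10 protein-coding Serpina3 copies. Genes not listed, among them Serpina1a to Serpina1f and Serpina3n, were not analysed here. Of 10 hepatocyte markers, 1 was listed (Apoa2), with a level of at most 16.3 normalised reads in a library.

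Serpina3g (ENSMUSG00000041481; chromosome 12, 104236245 to 104241939, plus strand) encodes an inhibitor that works inside the cell and blocks lysosomal cysteine cathepsins. It had 1238, 2519.6 and 1798 normalised reads in WT replicates 1 to 3 and 10261, 10707 and 6578 in Runx1 KO replicates 1 to 3. The lowest Runx1 KO library lay well above the highest WT library. The means were 1852 ± 643 and 9182 ± 2266 (SD, n = 3), a ratio of 4.96 and a log2 change of 2.34 (SE 0.28, limma adjusted p 0.00328). In GENCODE M21 its coding sequence spans 744 bases, against 1335 in Serpina3f.

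Serpina3f (ENSMUSG00000066363; chromosome 12, 104214544 to 104221129, plus strand), its neighbour upstream, is another relative of antichymotrypsin. WT libraries had 157, 276 and 89.2 normalised reads, and Runx1 KO libraries had 1429, 2247 and 697. The groups did not overlap, but the Runx1 KO libraries spread widely, with replicate 3 lowest, as it was for Serpina3g. The means were 174 ± 94.8 and 1458 ± 775 (SD, n = 3), a ratio of 8.36 and a log2 change of 3.05 (SE 0.51, limma adjusted p 0.00887), the largest rise among the tested Serpin genes.

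Serpina3b (ENSMUSG00000066364; chromosome 12, 104127996 to 104139545, plus strand) was weakly expressed. Only its Runx1 KO libraries carried it past the filter on low values, so a rise was favoured by the filter. It had 3.96, 9.08 and 9.59 normalised reads in WT and 75.3, 50.5 and 17.9 in Runx1 KO, so the groups stayed apart although Runx1 KO replicate 3 was less than 10 reads above the highest WT library. Its log2 change was 2.38 (SE 0.57, limma adjusted p 0.0271). The call was lost when any library other than Runx1 KO replicate 3 was left out, with adjusted p values from 0.0528 to 0.0994, and held without that library (0.0166). As a share of the Serpina3g level in the same library, Serpina3f stood at 0.127, 0.110 and 0.0496 in WT and at 0.139, 0.210 and 0.106 in Runx1 KO, so that the ranges of the groups overlapped.

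**Figure D2:**
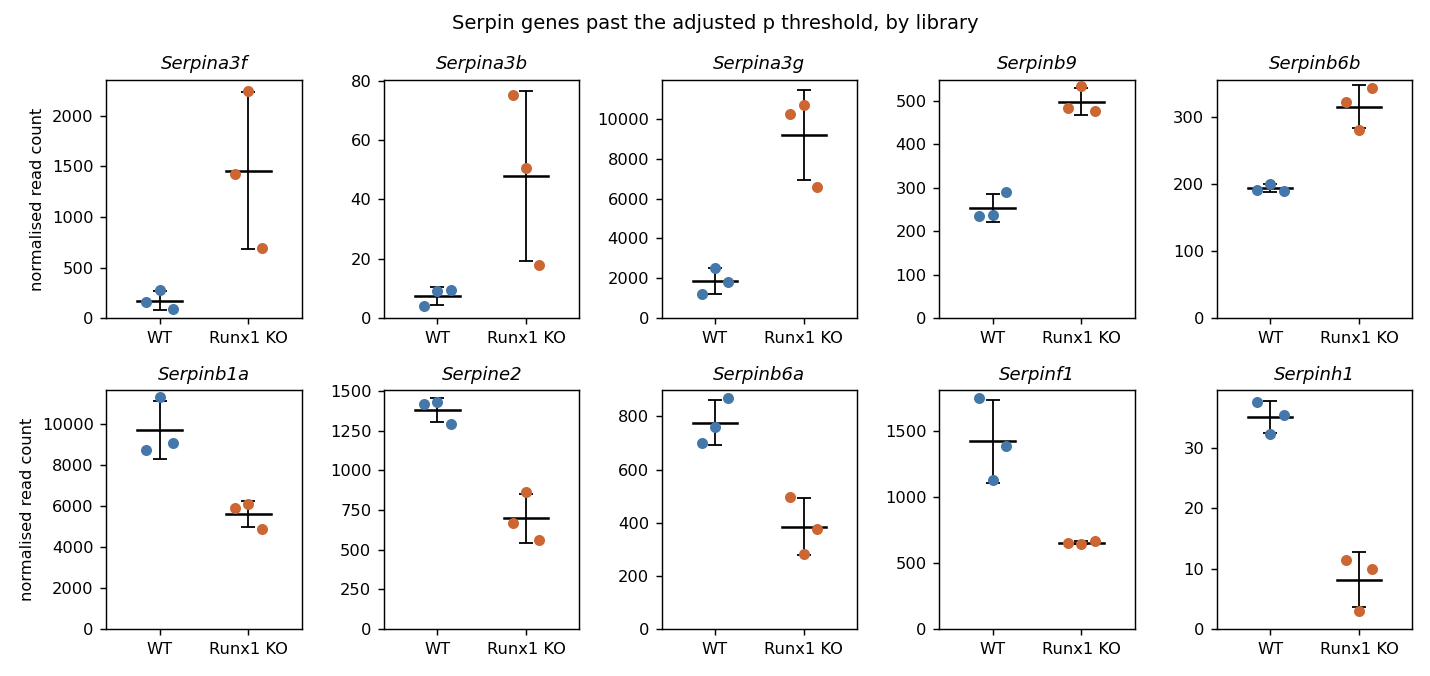
Normalised read count (vertical axis, linear from 0) of the 10 Serpin genes with an adjusted p under 0.05; points are libraries (3 WT, 3 Runx1 KO), lines the mean and bars the SD. In every panel the groups stand apart, with Serpina3g between 6578 and 10707 in Runx1 KO and at most 2519.6 in WT.

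The stretches upstream of the 2 strongly expressed copies are shown because the genes lie side by side and rose together. They run from 250 bases before to 50 bases after a transcript start, from RefSeq on GRCm38.p6, and capitals mark matches on either strand to 3 sets of letters: for RUNX factors TGTGGT and its variant spelling TGCGGT, for GATA factors the letters AGATAA, and for STAT factors the spaced palindrome TTCNNNGAA.
Serpina3g, chr12:104235897-104236196, + strand: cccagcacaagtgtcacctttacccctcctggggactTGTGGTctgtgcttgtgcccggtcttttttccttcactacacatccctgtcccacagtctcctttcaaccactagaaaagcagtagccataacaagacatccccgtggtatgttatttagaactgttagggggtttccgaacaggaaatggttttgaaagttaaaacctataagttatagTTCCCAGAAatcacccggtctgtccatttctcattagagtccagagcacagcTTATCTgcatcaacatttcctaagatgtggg
Serpina3f, chr12:104214294-104214593, + strand: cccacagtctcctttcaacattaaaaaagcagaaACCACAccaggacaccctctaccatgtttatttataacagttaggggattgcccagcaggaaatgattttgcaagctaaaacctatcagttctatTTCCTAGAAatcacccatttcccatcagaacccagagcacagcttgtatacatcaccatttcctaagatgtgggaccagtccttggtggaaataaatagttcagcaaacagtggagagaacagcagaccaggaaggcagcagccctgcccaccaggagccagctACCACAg

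Aligned to each other, these windows were identical at 83.7% of 202 aligned bases. Serpina3g held 1 match to the RUNX letters, 1 to the GATA letters and 1 to the STAT letters, none of them overlapping. Serpina3f held 2 matches to the RUNX letters and 1 to the STAT letters. The STAT letters of the 2 windows lined up, but the RUNX letters did not. The RUNX match of Serpina3g lay before the stretch that aligned, and the downstream match of Serpina3f lay past the end of the Serpina3g window. Another annotated start of Serpina3f has a window that is not shown. It was identical to that of Serpina3g at 55.4% of 271 aligned bases. A promoter window was found for 9 of the 10 called Serpin genes, and 5 of the 9 held a RUNX match (Serpina3f, Serpina3g, Serpinb9, Serpine2 and Serpinf1), genes that rose and genes that fell. Of all 19 listed members with a window, 7 held one. Over all 32851 windows of this length the share was 22.4%, counted per window, whereas a member with several windows was counted once if any of them held a match. The STAT letters occurred in 8.30% and the GATA letters in 11.2% of all windows. These are matches of letters, not sites.

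**Figure D3:**
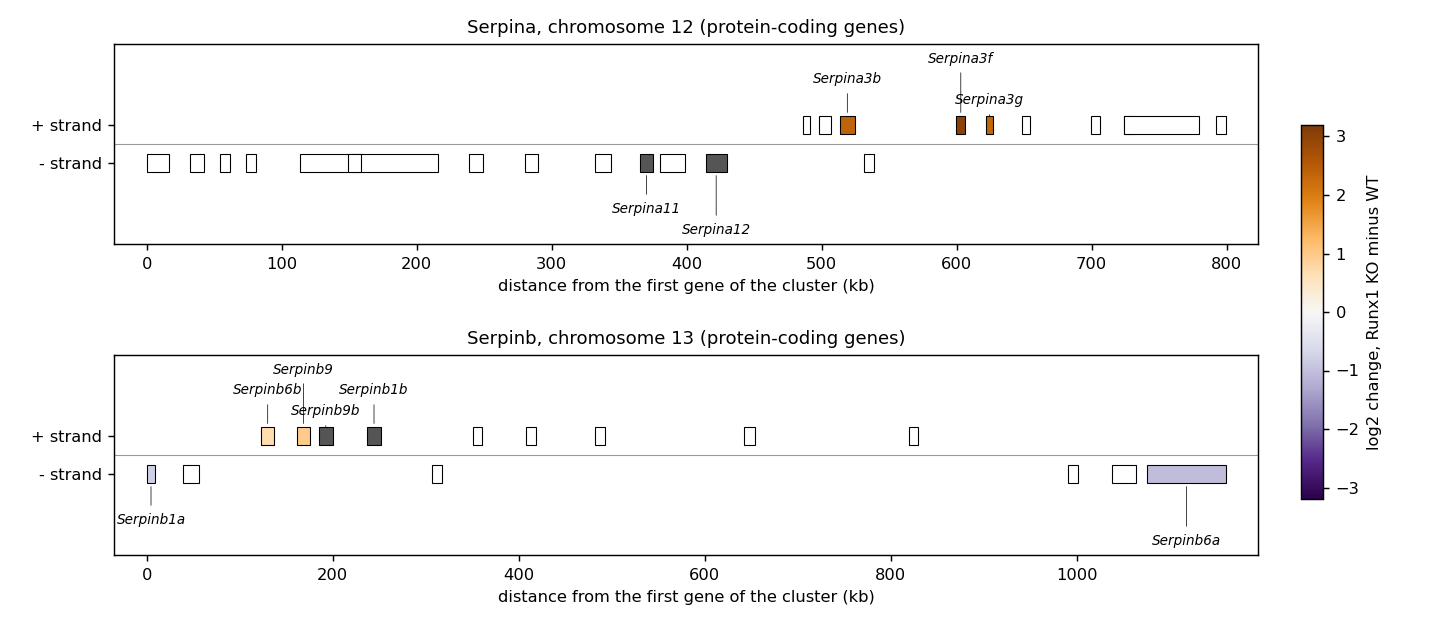
Protein-coding Serpin genes of the clusters on chromosome 12 (Serpina) and chromosome 13 (Serpinb), drawn to scale as boxes by distance in kb from the first gene and by strand. Colour gives the log2 change of tested genes, dark grey marks genes listed but not tested, and white marks genes that are not listed. The 3 rising Serpina3 copies lie on the plus strand within the same part of the cluster, and Serpinb6a lies at the far end of its cluster from Serpinb1a.

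Clade B inhibitors mostly stay inside the cell, and some of them act in leukocytes. The cluster on chromosome 13 holds 15 protein-coding Serpinb genes, of which 6 are listed and 4 were tested. All 4 changed, in both directions, and the copies Serpinb6a and Serpinb6b moved in opposite directions.

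Serpinb1a (ENSMUSG00000044734; chromosome 13, 32842092 to 32851185, minus strand) encodes the leukocyte inhibitor of the granule proteases elastase, proteinase 3 and cathepsin G. It had 8715, 11309 and 9088 normalised reads in WT and 5881, 6077 and 4859 in Runx1 KO, with no overlap. The means were 9704 ± 1403 and 5606 ± 654 (SD, n = 3), a log2 change of -0.79 (SE 0.12, limma adjusted p 0.0072). Its copy Serpinb1b, whose coding sequence is 90.6% identical, had at most 4.04 normalised reads in any library.

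The transcripts of 2 of its 3 granule targets fell as well. Elane had 31430 ± 3002 normalised reads in WT and 24622 ± 816 in Runx1 KO (log2 change -0.35, limma adjusted p 0.0242), and Prtn3 had 27004 ± 3244 and 20170 ± 289 (-0.41, adjusted p 0.0193; SD, n = 3). Ctsg did not pass (log2 change -0.05, adjusted p 0.629). Per kilobase of exon, the summed level of the 3 proteases was 17.0, 15.2 and 16.02 times that of Serpinb1a in WT and 21.8, 21.4 and 26.3 times in Runx1 KO, so the groups did not overlap. Of 14 neutrophil granule markers, which include these 3, 10 were lower and 0 higher, and their summed level was 326642 to 424446 normalised reads in WT and 163286 to 225894 in Runx1 KO. The part of this shift in the fall of Serpinb1a was not tested, and in bulk RNA fewer cells of a type and less RNA per cell cannot be told apart.

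Serpinb6a (ENSMUSG00000060147; chromosome 13, 33917918 to 34002794, minus strand), an inhibitor of cathepsin G, fell. It had 699, 762 and 868 normalised reads in WT and 497, 280.5 and 377 in Runx1 KO. Every Runx1 KO library was below every WT library, and the log2 change was -1.04 (SE 0.20, limma adjusted p 0.0141).

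Serpinb6b (ENSMUSG00000042842; chromosome 13, 32965209 to 32979067, plus strand), its copy near the other end of the cluster, rose. The WT libraries lay close together at 191, 201 and 189.9 normalised reads, and the Runx1 KO libraries were all higher at 322, 280.5 and 344. The log2 change was 0.70 (SE 0.12, limma adjusted p 0.00896). The ratio of Serpinb6b to Serpinb6a was 0.273, 0.264 and 0.219 in WT and 0.648, 1.00 and 0.913 in Runx1 KO, in normalised reads.

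Serpinb9 (ENSMUSG00000045827; chromosome 13, 33003250 to 33017957, plus strand) encodes the inhibitor that shields cells from granzyme B. It had 234, 236 and 291 normalised reads in WT and 482, 532 and 475 in Runx1 KO. The means were 254 ± 31.97 and 497 ± 31.0 (SD, n = 3), a log2 change of 0.97 (SE 0.12, limma adjusted p 0.00344). Its target moved the other way: Gzmb had 389.8, 276 and 298 normalised reads in WT and 74.3, 12.9 and 2.98 in Runx1 KO, a log2 change of -4.31 (SE 0.94, adjusted p 0.02). Serpinb9b, 86.4% identical to Serpinb9 in its coding sequence, was under the filter, at 3.96, 1.009 and 1.92 normalised reads in WT and 11.5, 5.95 and 12.9 in Runx1 KO; with no filter on low values it was called as higher (adjusted p 0.043).

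Serpinb8 (ENSMUSG00000026315; chromosome 1, 107590006 to 107610484, plus strand), an inhibitor of the proprotein convertase furin, did not pass. It had 61.3, 50.5 and 87.3 normalised reads in WT and 36.6, 39.6 and 24.9 in Runx1 KO, a log2 change of -0.95 (SE 0.28, limma adjusted p 0.0539), and the groups did not overlap.

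Clade E regulates fibrinolysis and thrombin. Serpine2 (ENSMUSG00000026249; chromosome 1, 79794197 to 79861180, minus strand) encodes protease nexin, a surface-bound inhibitor of thrombin and plasminogen activators. It had 1417, 1432 and 1290.1 normalised reads in WT and 669, 864 and 561 in Runx1 KO. The means were 1379.5 ± 77.8 and 698 ± 154 (SD, n = 3), a log2 change of -1.003 (SE 0.15, limma adjusted p 0.00641), with no overlap.

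Serpinf1 (ENSMUSG00000000753; chromosome 11, 75409769 to 75422701, minus strand) encodes a secreted factor that acts on vessels and nerve cells and inhibits no protease. WT libraries had 1756, 1130.1 and 1389.9 normalised reads, and Runx1 KO libraries sat close together at 652, 646 and 670.3. The log2 change was -1.10 (SE 0.15, limma adjusted p 0.00465). Its WT libraries spread more (SD 314) than its Runx1 KO libraries (SD 12.6), yet they did not overlap.

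Serpinh1 (ENSMUSG00000070436; chromosome 7, 99345376 to 99353239, minus strand) encodes the collagen chaperone of the endoplasmic reticulum. It was rare, at 37.6, 32.3 and 35.5 normalised reads in WT and 11.5, 2.97 and 9.95 in Runx1 KO. The log2 change was -2.14 (SE 0.46, limma adjusted p 0.0186). Its call was lost without WT replicate 1, 2 or 3 (adjusted p 0.0507, 0.0527 and 0.0552). Of 12 markers of mesenchymal stroma, the tissue that makes most collagen, 9 were listed and 7 tested; 5 of the 7 were lower and 0 higher, and the summed level was 2911 to 9128 normalised reads in WT and 2805 to 5187 in Runx1 KO. Col1a1 had 175, 36.3 and 33.6 normalised reads in WT and 13.6, 4.96 and 5.97 in Runx1 KO, while Pdgfra, Lum and Bglap were not listed. The part of such cells in the fall of Serpinh1 was not tested.

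Serping1, the inhibitor of the first complement proteases and of plasma kallikrein, had 25.7, 68.6 and 30.7 normalised reads in WT and 23.01, 7.93 and 5.97 in Runx1 KO. Its log2 change of -1.77 (SE 0.56) had a limma adjusted p of 0.0632, and 0.0192 without Runx1 KO replicate 1; without any other single library it was 0.0757 to 0.181. Serpini1, or neuroserpin, an inhibitor of tissue plasminogen activator best known from neurons, had between 118 and 178 normalised reads in WT and between 95.5 and 140.2 in Runx1 KO. The groups overlapped, with a log2 change of -0.31 (SE 0.21, adjusted p 0.337).

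The 8 members under the filter were Serpina11, Serpina12, Serpinb12, Serpinb1b, Serpinb2, Serpinb9b, Serpinc1 and Serpinf2, with at most 18.8 normalised reads in a library (Serpinb2). Serpinc1, which encodes antithrombin, had 4.95, 7.06 and 4.796 normalised reads in WT and 3.14, 0.991 and 0 in Runx1 KO. Of the 50-base windows of its transcript, 58.8% occurred also in Zbtb37, and of those of Serpina11 44.4% occurred in Gm28577. The few reads of these 2 genes may therefore not be theirs alone. Serpina12, Serpinb12, Serpinb1b, Serpinc1 and Serpinf2 were at 0 in at least 1 Runx1 KO library, where 3 reads, the limit that a count of 0 allows, correspond to 2.97 to 3.14 normalised reads. This limit covers counting error only: the reads carry no molecular identifiers and can be copies of the same molecule. With no filter on low values, Serpinb9b alone of the 8 had an adjusted p under 0.05.

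Set against each other per kilobase of exon, the members changed order. The length used joins all annotated exons of a gene. It was 8287 bases for Serpine2 and 5409 for Serpinb6a, where the coding transcripts compared above span 2210 and 1504. For Serpinf1 it was 2359, against 1832. The order, overlaps and shares of members within a group therefore depend on the length chosen. In WT, Serpinb1a led with 4214 ± 609 normalised reads per kilobase, followed by Serpina3g (880 ± 305) and Serpinf1 (604 ± 133; SD, n = 3). The ranges of Serpina3g (588 to 1197) and Serpinf1 (479 to 744) overlapped. Serpine2 (156 to 173) and Serpinb6a (129 to 160.5) also overlapped. The wide range of Serpina3f (39.0 to 121) took in those of Serpinb6b (84.0 to 88.8) and Serpinb9 (67.1 to 83.2), which did not overlap each other.

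In Runx1 KO, Serpina3g led with 4362 ± 1077 and Serpinb1a followed with 2434 ± 284 normalised reads per kilobase (SD, n = 3), without overlap. Next came Serpina3f (637 ± 339) and then Serpinf1 (278 ± 5.36), again without overlap. As a share of all Serpin RNA per kilobase, Serpinb1a held 65.8% to 67.5% in WT libraries and 27.8% to 33.5% in Runx1 KO libraries, while Serpina3g held 10.3% to 16.5% and 49.6% to 54.9%. The summed level of the 22 genes was 5722, 7270.2 and 5995 normalised reads per kilobase in WT and 8877, 9480.4 and 6297 in Runx1 KO, so the totals overlapped while the make-up did not.

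**Figure D4:**
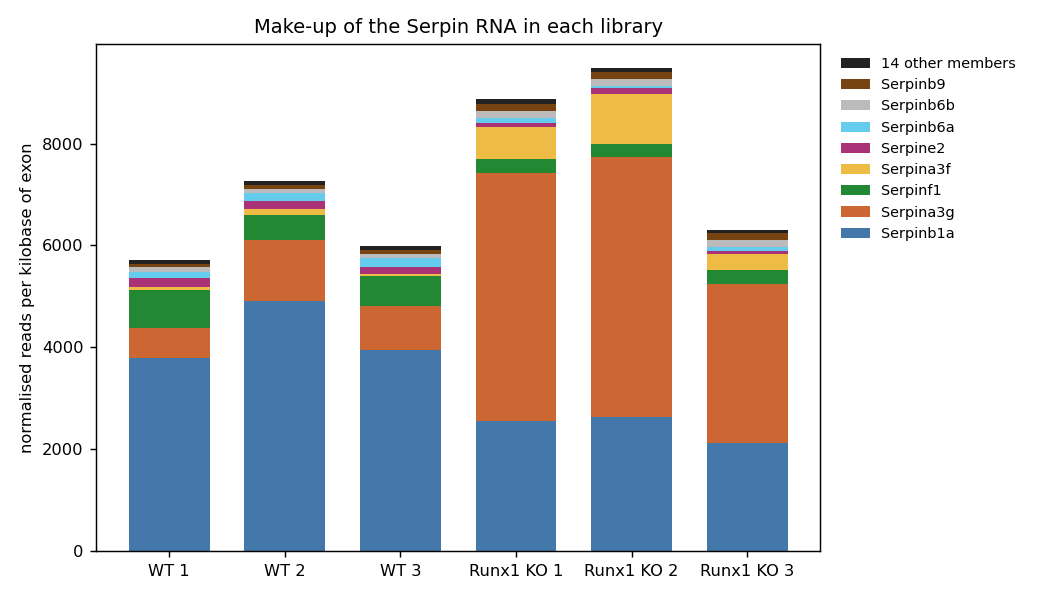
Stacked level of Serpin RNA in each library, in normalised reads per kilobase of exon (vertical axis, from 0), with 8 genes shown by colour and 14 other members summed. Serpinb1a fills 65.8% to 67.5% of the WT bars and Serpina3g 49.6% to 54.9% of the Runx1 KO bars.

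Beside the Serpin genes, lists of proteases, receptors and other inhibitors were counted. They are to be read against the 10.6% of all tested genes that were higher and the 11.3% that were lower. Granule serine proteases, which include the targets given above for Serpinb1a, Serpinb6a and Serpinb9, were lower as far as they passed. For the other proteases of this list, no inhibitor among the Serpin genes is named here. Of its 15 genes 13 were listed and 11 tested, 7 fell and 0 rose, with a median log2 change of -0.75. Those with the largest change were the basophil and mast cell proteases Prss34 (2899 ± 1062 normalised reads in WT against 3.73 ± 1.63 in Runx1 KO, log2 change -9.26) and Mcpt8 (1662 ± 198 against 132 ± 10.4, -3.64; SD, n = 3), and Gzmb. Of 10 tested proteases of the cysteine and convertase group, Furin rose (log2 change 0.41, limma adjusted p 0.00615) and Ctsh and Ctsb fell (-1.19 and -0.29), the latter 2 being lysosomal cathepsins. The median of that group was -0.13, and its 3 of 10 genes called lie near the 21.9% called over all genes. Of 11 mast cell and basophil markers, 10 were listed and 9 tested, with 6 lower and 1 higher. Prss34, Mcpt8, Gzmb and Cma1, which fell, are in both this list and that of the granule serine proteases. Only their WT libraries carried Prss34 and Cma1 past the filter on low values, so for them a fall was favoured by the filter. The summed level of the markers overlapped between groups, at 13305 to 17633 normalised reads in WT and 11385 to 13387 in Runx1 KO.

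Among 15 proteases of clotting, fibrinolysis and complement, 9 were listed and 4 tested. F10, the clotting protease that makes thrombin, fell from 1261 ± 173 to 473 ± 44.8 normalised reads (SD, n = 3; log2 change -1.41, limma adjusted p 0.00128), and F7 fell by 1.14 on the log2 scale. Plau, the protease urokinase, had a log2 change of -0.38 (adjusted p 0.0791). Of 8 receptors and cofactors, 7 were tested, with 3 lower and 1 higher. Plaur, the urokinase receptor, fell by 2.13 on the log2 scale and Sdc4 by 1.86, while the heparan sulfate carrier Sdc1 rose by 1.399 (342 ± 120 to 879 ± 201; SD, n = 3). Lrp1, which clears complexes of serpin and protease, did not pass (log2 change -0.15, adjusted p 0.242).

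Inhibitors of other families were counted in the same way. Of 20 such genes 17 were listed and 14 tested, with 0 higher and 2 lower, Reck (log2 change -1.01) and the stefin Stfa1 (-3.50), which has close copies. Their median was -0.12. The secreted inhibitors Slpi and Cst3, with Cst7 and Spint2, did not pass, at log2 changes from -0.27 to -0.11. Over the 5 lists 18 genes passed, and 9 and 11 passed without Runx1 KO replicate 2 and replicate 3.

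**Figure D5:**
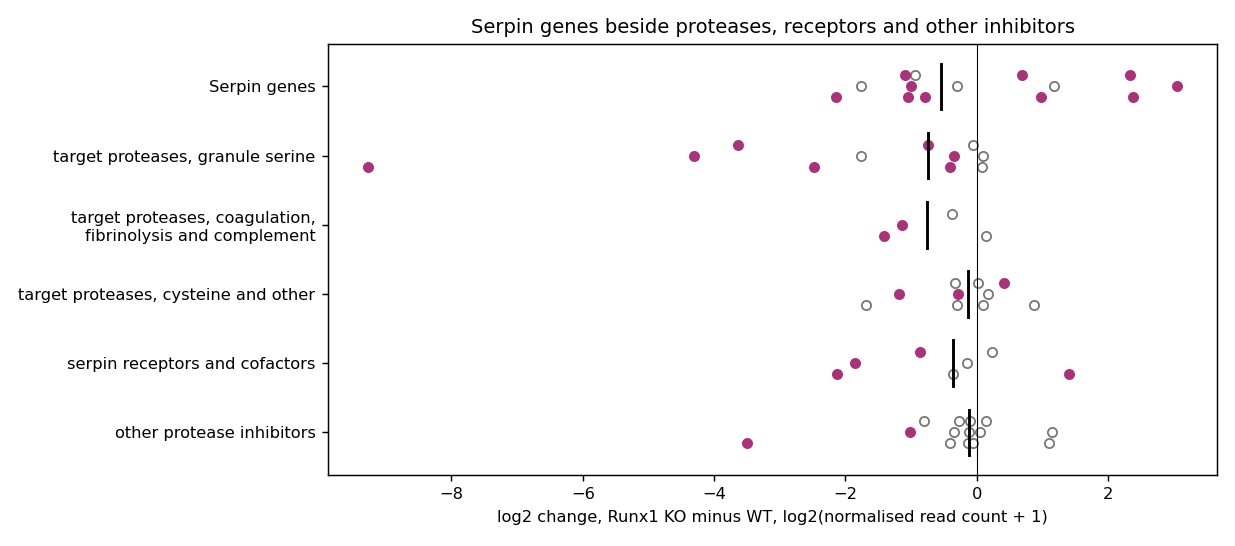
Log2 change (Runx1 KO minus WT, horizontal axis) of tested Serpin genes and of 5 lists of proteases, receptors and other inhibitors; each point is a gene, filled where the adjusted p is under 0.05, and the black bar is the median. Serpin genes lie on both sides of 0, from -2.14 to 3.05, while the granule serine proteases reach -9.26.

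Markers of other cell types were counted against the same shares of all tested genes, 10.6% higher and 11.3% lower. Stem and multipotent markers were higher (9 of 14, 0 lower; summed level 11588 to 15514 normalised reads in WT and 17886 to 21884 in Runx1 KO), and so were megakaryocyte and platelet markers (6 of 10 tested, 0 lower). Of 9 tested endothelial markers 4 were higher and 0 lower, but their summed level overlapped between groups (3593 to 4330 in WT and 4232 to 5678 in Runx1 KO). B-lymphoid markers were lower (9 of 12, 0 higher; 8060.3 to 35566 in WT and 1272 to 3687 in Runx1 KO). Of the erythroid markers 4 of 12 were lower and 0 higher, of the monocyte and macrophage markers 3 of 15 were lower and 1 higher, of the dendritic cell markers 0 of 10 passed by limma (4 had an unadjusted p under 0.05), and of the T and NK markers 1 of 12 was lower and 1 higher. In WT and Runx1 KO the summed levels overlapped for erythroid (36279 to 54866 and 32105 to 53232) and dendritic cell markers (7131 to 7788 and 6336 to 8385). Those of monocyte and macrophage markers overlapped too (58169 to 63938 and 56472 to 73020). Megakaryocyte and platelet sums (4959 to 5863 and 6911 to 10185) and T and NK sums (8056 to 8493 and 4908 to 6528) did not overlap. The part of these marker shifts in the values of the Serpin genes was not tested.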

How the data were processed

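Poly-A RNA of c-Kit+ bone marrow cells was sequenced in 3 WT and 3 Runx1 KO libraries. The submitters' processing notes name HISAT2, HTSeq 0.9.1 and the builds mm10 and GRCm38, with no role. The deposited values are a signal, read counts divided by a size factor per library by the authors: in every file 100% were whole multiples of the smallest value (tolerance 0.001), a step of 0.959 to 1.05. The planned count tests were not run, because this unit did not pass as recovered reads for every file. No listed gene had fewer than 10 of these multiples in total.

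Symbols came from the supplied table, and gene types, positions and exon lengths from GENCODE M21 (20077 of 20097 identifiers). An exon length joins all annotated exons of a gene. limma 3.58.1 in R 4.3.3 (trend, two-sided, Benjamini-Hochberg) was fitted to log2(value + 1) with group as the only term. Genes needed the equivalent of 10 reads at the median library size in 3 libraries and a total of 15, which kept 15410 and left out 4687. The fit was checked on simulated data with the same spread setting for all genes and changes only in genes with a WT mean of at least 50. That check does not cover changes in genes as low as Serpina3b and Serpinh1. Serpin genes past the threshold, or with a mean of 200 or more, were named; of the other lists, the 3 called genes with the largest change. The other Serpin genes given by library, and list genes beyond those 3, were added after their values were seen. Members and lists were chosen with earlier results of these data known. Some items, 1 tested Serpin gene among them, are counted but not reported here. Sequences were compared with Biopython 1.88.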

Additional observations from a re-analysis of the deposited data

How the results depend on the processing

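Alternatives were pseudocounts of 0.5 and 5, no filter or a mean of at least 50, scaling by library totals or by trimmed means, the replicate block, and leaving out each library; the 2 planned count tests were not run. With all libraries kept, each of 94 values of tested Serpin genes stayed on its side of the threshold; those that could be fitted at a mean of at least 50 were fewer. With a library left out, 74 of 84 stayed, 8 were weaker (Serpina3b and Serpinh1) and 2 stronger (Serping1 among them), and no direction turned. Leaving out a library gave 1367 to 3597 called genes (632 to 1634 higher, 735 to 1963 lower), 4 to 5 Serpin genes higher, 4 to 6 lower, and 9 to 24 genes of the 5 lists. Scaling by library totals shifted the median of all genes to 0.08. The replicate numbers shared between groups gave correlations of deviations of 0.29, 0.13 and -0.01, so they were not taken as pairs; not every library correlated best with its own number. With the replicate block 3843 genes were called (1656 higher, 2187 lower), 5 Serpin genes higher, 5 lower and 22 genes of the lists. The depth leaves genes of a few reads, such as 8 members, under the filter on low values, where a test rests on few reads.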

Other observations

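Serpinb10, a clade B gene on chromosome 1 (107529003 to 107549271, plus strand), was left out of the family above because GENCODE M21 lists it as a polymorphic pseudogene. It was chosen after its values were seen. It had 676, 389 and 473 normalised reads in WT and 239.5, 91.2 and 70.6 in Runx1 KO, with no overlap, a log2 change of -2.10 (SE 0.45) and a limma adjusted p of 0.0186. The pseudogene Serpina3e-ps, beside Serpina3f, had at most 3.98 normalised reads in a library.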
